A study of Mus musculus with 6 samples.

Results

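The unfolded protein response and the folding, quality control and export of secretory proteins were followed through 35 genes in the whole lungs of TNF-Tg and WT mice. Members were taken by gene symbol from the deposited count table. All 35 were found among its 49568 gene symbols, and all 35 were among the 19199 genes that passed the filter on low counts and were tested. Poly(A) RNA of the lung was sequenced as a library for each of 6 female mice, 4 months of age, 3 of each genotype. TNF-Tg mice carry a human TNF transgene throughout life and develop inflammatory-erosive arthritis and pulmonary hypertension. WT mice are their littermates without the transgene, and no other allele or treatment is given for either group. The human transgene itself was not analysed here, and its promoter is not given in the sources used here. The animals were separate, so the spread between them includes biological variation, but a whole-lung measurement cannot tell fewer cells of a type from less RNA per cell.

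Proteins that enter the endoplasmic reticulum (ER) are folded by chaperones, joined by disulfide bonds and handed on for export, and those that fail to fold are returned to the cytosol and degraded. When unfolded proteins build up, the ER membrane sensors IRE1 (Ern1), PERK (Eif2ak3) and ATF6 start the unfolded protein response. IRE1 splices the mRNA of the transcription factor XBP1, ATF6 is cut to free a transcription factor, and PERK phosphorylates eIF2alpha, which slows translation in general but raises that of ATF4. Splicing, cleavage and phosphorylation are not measured by gene counts. Plasma cells and alveolar type 2 cells are secretory cells that carry much of this machinery.

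The lungs held between 25396923 and 32529408 counts, so that 3 counts amounted to 0.0922 to 0.118 CPM, where CPM is a gene's count scaled to library size. A normalized count is the count over the TMM-scaled size of its library, brought to the mean size of all libraries. Sftpc, the surfactant gene that marks alveolar type 2 cells, was among the abundant genes of every lung, with 287103 to 514545 normalized counts. A pair of lungs stood apart. TNF-Tg replicate 1 had 5.22% of its counts on Gm42418, and the other lungs between 0.0774% and 0.274%. WT replicate 1 had 117800 summed normalized counts of 9 squamous epithelium genes and 60492 of 8 skeletal muscle genes, against at most 944 and 1543 in the other lungs. Counts of called genes were also taken without these lungs. TNF-Tg replicate 3, which was kept there, also differed from its group. It had 5401 summed normalized counts of 5 fat cell genes, against 1466 and 1668 in the other TNF-Tg lungs. The WT lungs had 2684 to 6006.

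Some promoters of the members hold known elements of this response, which are shown because the text returns to the genes that carry them. The ER stress response element (ERSE), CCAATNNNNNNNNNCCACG, is bound by NF-Y and ATF6 or XBP1, and ERSE-II, ATTGGNCCACG, by the same factors. The amino acid response element (CARE), with the letters TGATGNAA, is bound by ATF4 with a partner of the C/EBP family. The RefSeq promoter table (GRCm38.p6, 250 bases before to 50 after a gene start) held 29 of the 35 members. Both strands were searched for exact matches. The ERSE was found in 7 of the 29 (24.1%), against 0.137% of the 27025 genes in the table, and ERSE-II in 2 (6.9%), against 0.0444%. Elements and members were both known for this response beforehand, so these shares are description and were not tested. The sites are printed 5′ to 3′ in the direction of the motif with 5 flanking bases on either side, and capitals mark the fixed letters. Strands given are those of the genes. The Dnajb11 site lies just after the RefSeq gene start and the others before it.
Hspa5, chr2:34772025-34772043, plus: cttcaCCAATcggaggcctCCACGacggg
Hsp90b1, chr10:86705638-86705656, minus: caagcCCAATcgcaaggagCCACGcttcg
Hsp90b1, chr10:86705533-86705551, minus: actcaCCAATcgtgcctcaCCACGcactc
Dnajc3, chr14:118937827-118937845, plus: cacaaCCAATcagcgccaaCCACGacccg
Calr, chr8:84847075-84847093, minus: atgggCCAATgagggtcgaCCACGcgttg
Canx, chr11:50325800-50325818, minus: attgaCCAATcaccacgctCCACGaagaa
Pdia6, chr12:17266491-17266509, plus: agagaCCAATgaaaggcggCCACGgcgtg
Syvn1, chr19:6046532-6046550, plus: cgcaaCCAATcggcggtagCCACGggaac
Dnajb11 (ERSE-II), chr16:22857852-22857862, plus: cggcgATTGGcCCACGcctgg
Herpud1 (ERSE-II), chr8:94386377-94386387, plus: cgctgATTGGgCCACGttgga
The spacer letters between the capitals differed at every site, while the outer letters are those of the motif by construction.

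The CARE letters were found in 4 of the 29 members (13.8%), against 4.51% of all genes in the table. They are printed in the same way, with all 8 letters of the motif in capitals. The Trib3 site lies just after the gene start and the others before it.
Asns, chr6:7693225-7693232, minus: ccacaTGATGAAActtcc
Chac1, chr2:119351049-119351056, plus: aggagTGATGCAAcggca
Trib3, chr2:152344039-152344046, minus: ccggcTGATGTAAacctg
Herpud1, chr8:94386317-94386324, plus: cgggcTGATGCAAcccgc
Herpud1 thus held the letters of an ERSE-II and of a CARE. TGACGTGG, an element bound by ATF6 and XBP1 (UPRE), was found in 0 of the 29 members and in 0.714% of all genes in the table.

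In TNF-Tg lungs, 12 of the 35 members were higher and 2 were lower than in WT lungs, and 21 did not pass the threshold (edgeR's quasi-likelihood test, Benjamini-Hochberg adjusted p of 0.05 over all genes tested). The 14 called members were 40% of the set, while 47.4% of all genes tested were called. Members higher in TNF-Tg lungs were 34.3% of the set, against 24% of all genes, and members lower were 5.71%, against 23.4%. The groups did not overlap for 21 members (60%), against 58.7% of all genes. The median log2 fold change was 0.19 over the members and 0.03 over all genes, and the median absolute change was 0.25 and 0.48. An absolute log2 fold change of at least 1 together with the adjusted p was reached by 6 members (17.1%), against 22.5% of all genes. The shares called and not overlapping were thus near or below the background. Without TNF-Tg replicate 1, 7 of the 35 members were higher, against 3392 of the 19674 genes then tested. Without TNF-Tg replicate 2, 1 of the 35 was lower, against 3734 of the 19607 genes then tested. Without both lungs that stood apart, 6 members were higher (17.1%, against 13.8% of all genes) and 3 lower (8.57%, against 17.4%). Of the 14 called members, 7 kept their call in all 16 alternative fits, namely Eif2ak3, Asns, Sdf2l1, Edem1, Edem2, Sec61b and Ssr4.

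**Figure D1:**
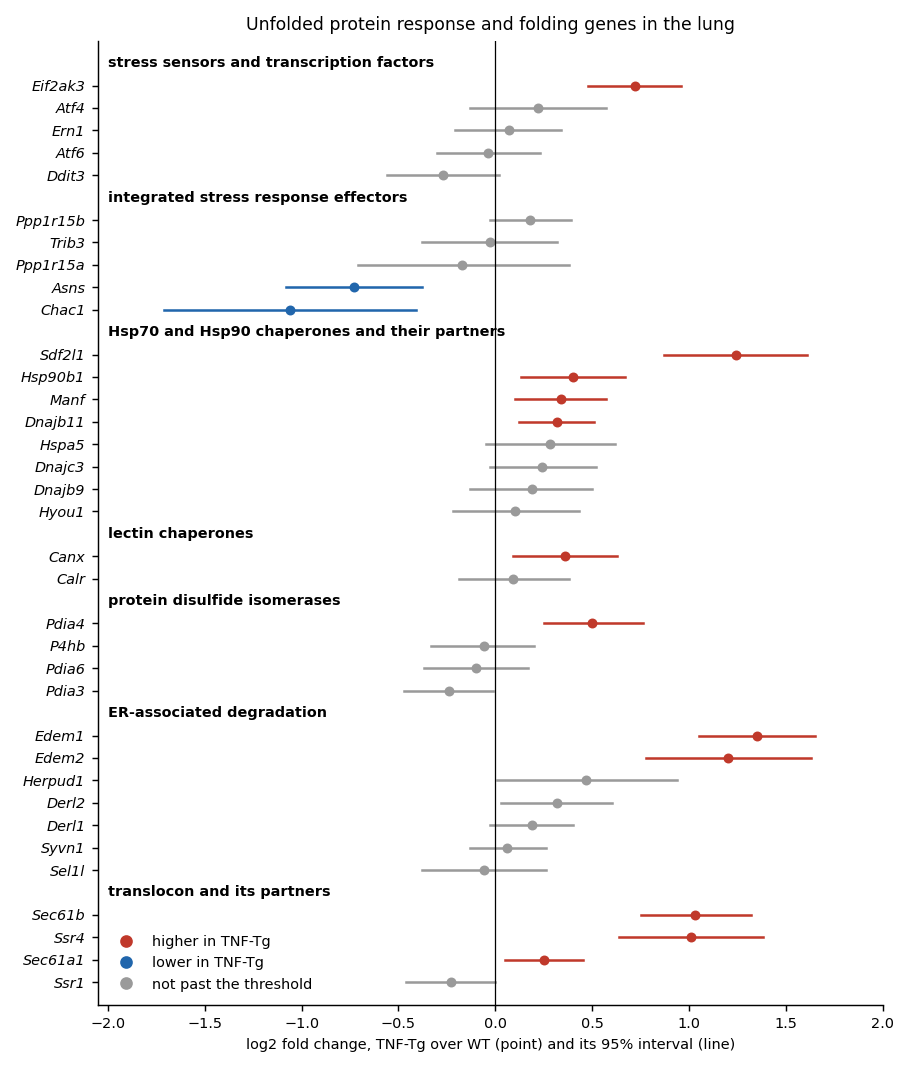
Log2 fold change of each member in TNF-Tg over WT lungs (points) with its 95% interval (lines), by role. Red points passed the threshold as higher, blue as lower, and gray did not pass it. Edem1 at 1.35 is the highest point and Chac1 at -1.06 the lowest.

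Among the sensors and their transcription factors, Eif2ak3 alone passed the threshold (1 of 5, or 20%, against 47.4% of all genes). Eif2ak3, which encodes the sensor kinase PERK, had 1411, 1265 and 1341 normalized counts in the TNF-Tg lungs and 822, 886 and 732 in the WT lungs. Every TNF-Tg lung was above every WT lung, and the log2 fold change was 0.72 (SE, its standard error, 0.10, adjusted p = 0.000886). In all 16 alternatives its change lay between 0.64 and 0.78 and passed the threshold.

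The other sensors overlapped between the groups. Ern1, the IRE1 kinase and endoribonuclease, had 1725, 1871 and 1902 normalized counts in TNF-Tg lungs and 1955, 1829 and 1472 in WT lungs (log2 fold change 0.07, SE 0.12, adjusted p = 0.676). Atf6 had 2227, 2141 and 1920 normalized counts against 2433, 2103 and 1907 (log2 fold change -0.04, SE 0.11, adjusted p = 0.821). The lung with the highest value belonged to the WT group for both genes. Atf4, the transcription factor downstream of PERK, had 3083, 3286 and 3978 normalized counts against 2980, 2439 and 3462, which overlapped (log2 fold change 0.22, SE 0.15, adjusted p = 0.264). Ddit3, which encodes the pro-apoptotic factor CHOP, had 413, 434 and 507 normalized counts in TNF-Tg lungs and 593, 512 and 530 in WT lungs. All its TNF-Tg values were below all its WT values, but the change did not pass the threshold (log2 fold change -0.27, SE 0.13, adjusted p = 0.111).

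Of the effectors of the integrated stress response, the program that eIF2alpha phosphorylation and ATF4 set off, 2 of 5 fell and none rose (40% called, against 47.4% of all genes). Chac1, a glutathione-degrading enzyme, had 94.9, 54.8 and 46.3 normalized counts in TNF-Tg lungs and 126, 133 and 147 in WT lungs. The groups did not overlap, and TNF-Tg replicate 1 was the nearest of its group to the WT lungs (log2 fold change -1.06, SE 0.28, adjusted p = 0.0154). Without TNF-Tg replicate 2 the call was lost (log2 fold change -0.95, adjusted p = 0.056). Asns, asparagine synthetase, had 489, 342 and 363 normalized counts against 626, 679 and 675. Again no TNF-Tg lung reached the WT range (log2 fold change -0.73, SE 0.15, adjusted p = 0.0053), and the call held in all 16 alternatives. These 2 genes and Trib3 hold a CARE in their printed promoters, together with Herpud1. Trib3, a pseudokinase that binds ATF4, had 167 to 189 normalized counts in TNF-Tg lungs and 164 to 195 in WT lungs (log2 fold change -0.03, adjusted p = 0.885).

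The eIF2alpha phosphatase subunits, which end the response, did not pass the threshold. Ppp1r15a (GADD34) had 2499, 1294 and 1325 normalized counts in TNF-Tg lungs and 1993, 1867 and 1871 in WT lungs. Its TNF-Tg lungs lay on both sides of the narrow WT range, with replicate 1 above it and the other two below (log2 fold change -0.17, SE 0.24, adjusted p = 0.595). Without TNF-Tg replicate 1, the lung with the large share of Gm42418, the change was -0.58 (adjusted p = 0.00421), and without replicate 2 it was 0.00. Ppp1r15b, the constitutive subunit, had a log2 fold change of 0.18 (adjusted p = 0.138).

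**Figure D2:**
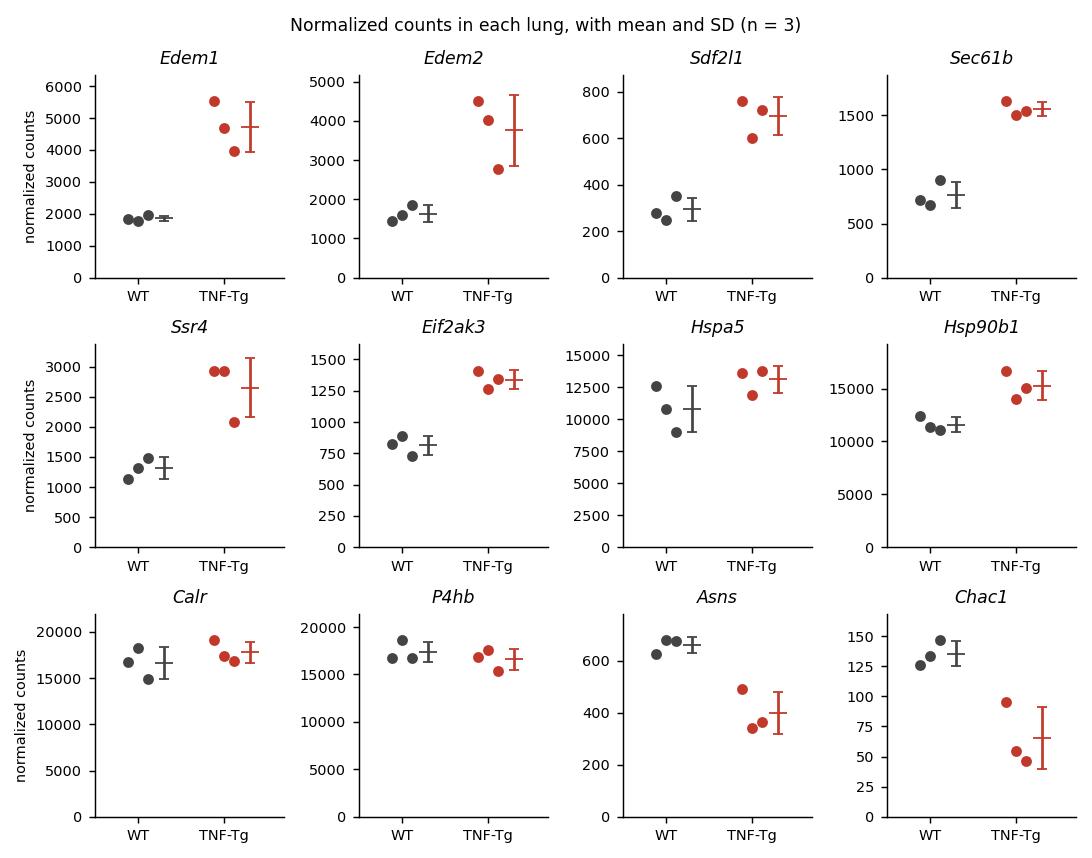
Normalized counts (vertical axes, from 0) of 12 members in each WT lung (gray) and TNF-Tg lung (red), with the mean and SD of 3 lungs beside the points. The groups do not overlap for Edem1, Edem2, Sdf2l1, Sec61b, Ssr4, Eif2ak3, Hsp90b1, Asns and Chac1, and overlap for Hspa5, Calr and P4hb.

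The Hsp70 and Hsp90 chaperones of the ER and their partners had 4 of 8 members called (50%, against 47.4% of all genes), all higher. The log2 fold change of all 8 was above 0, as was that of 10041 of the 19199 genes tested. Sdf2l1, a partner of BiP and its J proteins in the ER, had 759, 602 and 719 normalized counts in TNF-Tg lungs and 280, 250 and 350 in WT lungs. Its lowest TNF-Tg lung was well above its highest WT lung (log2 fold change 1.24, SE 0.16, adjusted p = 0.00051). Hsp90b1, the ER Hsp90 (GRP94), had 16707, 14005 and 15062 normalized counts against 12384, 11338 and 11040. The groups did not overlap (log2 fold change 0.40, SE 0.12, adjusted p = 0.0236), but the call was lost without TNF-Tg replicate 1 (0.29, adjusted p = 0.125), without WT replicate 2 (0.38, adjusted p = 0.0865) and without WT replicate 3 (0.36, adjusted p = 0.053).

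Hspa5, which encodes BiP, the Hsp70 of the ER and the usual reporter of the unfolded protein response, did not pass the threshold. It had 13607, 11945 and 13819 normalized counts in TNF-Tg lungs and 12576, 10780 and 8977 in WT lungs. WT replicate 1 lay within the TNF-Tg range, so the groups overlapped (log2 fold change 0.28, 95% interval -0.05 to 0.62, adjusted p = 0.142). Its change lay between 0.17 and 0.39 in the 16 alternatives and passed the threshold in none of them.

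The smaller changes of this role passed in some fits and not in others. Dnajb11, a J protein that brings substrates to BiP, had 2772, 2532 and 2618 normalized counts against 2049, 2202 and 2115, without overlap (log2 fold change 0.32, SE 0.09, adjusted p = 0.017), and its call was lost without TNF-Tg replicate 1 (0.24, adjusted p = 0.0926) or WT replicate 1 (0.27, adjusted p = 0.0771). With all lungs kept it was also lost when libraries were scaled by total counts alone (0.29, adjusted p = 0.0771). Manf, a secreted ER stress factor, had 2981, 2635 and 2486 normalized counts against 2208, 2212 and 1984, also without overlap (0.34, SE 0.10, adjusted p = 0.0258). It passed the threshold with 1 of the 6 lungs left out, TNF-Tg replicate 3, and lost the call without any other, its log2 fold change then lying between 0.23 and 0.36. Dnajc3, Dnajb9 and Hyou1, a co-chaperone that also inhibits PERK, a J protein and a nucleotide exchange factor of BiP, had log2 fold changes of 0.24, 0.19 and 0.10 and did not pass. Without TNF-Tg replicate 1, Sdf2l1 was the 1 call left of the 4.

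The lectin chaperones calnexin and calreticulin hold glycoproteins during folding. Canx had 8179, 6612 and 7231 normalized counts in TNF-Tg lungs and 6094, 5852 and 5237 in WT lungs. The groups did not overlap (log2 fold change 0.36, SE 0.12, adjusted p = 0.0362), but 9 of the 16 alternatives lost the call, among them the fits without TNF-Tg replicate 1 (0.24, adjusted p = 0.18), TNF-Tg replicate 3 (0.36, adjusted p = 0.0685) and each WT lung (0.29 to 0.38). Calr had 19110, 17357 and 16874 normalized counts against 16772, 18287 and 14896, with WT replicate 2 inside the TNF-Tg range (log2 fold change 0.09, SE 0.12, adjusted p = 0.56). Both genes hold an ERSE.

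Of the 4 protein disulfide isomerases, which form and rearrange disulfide bonds, Pdia4 rose (25% called, against 47.4% of all genes). It had 4673, 3834 and 4084 normalized counts against 3175, 2983 and 2715, and every TNF-Tg lung was above every WT lung (log2 fold change 0.50, SE 0.11, adjusted p = 0.00685). The call held with any of the lungs left out, and was lost without both lungs that stood apart (0.44, adjusted p = 0.0536). P4hb, the founding member of the family, had 16890, 17562 and 15362 normalized counts against 16772, 18620 and 16715, which overlapped (log2 fold change -0.06, SE 0.12, adjusted p = 0.67). Pdia3, the partner of the lectin chaperones, had 11362, 10477 and 10698 normalized counts against 13159, 12876 and 12431. All its TNF-Tg lungs were below all WT lungs, without passing the threshold in edgeR (log2 fold change -0.24, SE 0.10, adjusted p = 0.0818). DESeq2 called it (adjusted p = 0.0155). Pdia6 had a log2 fold change of -0.10 (adjusted p = 0.506).

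In ER-associated degradation 2 of 7 members passed (28.6%, against 47.4% of all genes), and Edem1 had the largest rise of the set. Edem1, a lectin that takes misfolded glycoproteins out of the folding cycle (chr6:108828641-108859356, plus strand, GRCm38), had 5533, 4684 and 3973 normalized counts in TNF-Tg lungs and 1829, 1785 and 1955 in WT lungs. Its lowest TNF-Tg lung was above all WT lungs, with a fold of 2.55 between the groups (log2 fold change 1.35, SE 0.13, adjusted p = 0.000119). Its relative Edem2 (chr2:155701677-155729475, minus strand) had 4507, 4017 and 2762 normalized counts against 1435, 1609 and 1856. It did not overlap either (log2 fold change 1.20, SE 0.19, adjusted p = 0.00119), and TNF-Tg replicate 3 was the nearest of its group to the WT lungs for both genes.

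The stretches upstream of Edem1 and Sdf2l1, the 2 members with the largest log2 fold changes, are shown because neither holds the full ERSE or ERSE-II. Each is the 200 bases before the RefSeq start on GRCm38.p6, printed 5′ to 3′ on the gene's strand, with the CCAAT box and the letters CCACG in capitals on either strand.
Edem1, chr6:108828441-108828640, plus: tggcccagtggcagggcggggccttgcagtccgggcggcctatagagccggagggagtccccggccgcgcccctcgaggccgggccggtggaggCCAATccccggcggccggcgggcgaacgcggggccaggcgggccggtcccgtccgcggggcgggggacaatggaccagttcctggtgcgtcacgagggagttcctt
Sdf2l1, chr16:17132384-17132583, minus: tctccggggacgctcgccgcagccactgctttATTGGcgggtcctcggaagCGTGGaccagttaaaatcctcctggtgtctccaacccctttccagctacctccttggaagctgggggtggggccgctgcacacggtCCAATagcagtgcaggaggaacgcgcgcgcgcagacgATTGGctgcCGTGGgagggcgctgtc
The Edem1 stretch held 1 of these 5-letter parts and the Sdf2l1 stretch 5, at other spacings than those of the ERSE and ERSE-II. These letters are common: CCAAT was found in 41.1% of all genes in the promoter table and CCACG in 35.5%. Of the 9 members with an ERSE or ERSE-II, 3 were higher (Hsp90b1, Dnajb11 and Canx), none was lower and 6 were not called (median log2 fold change 0.28). All 3 calls were lost without TNF-Tg replicate 1. Of all genes tested, 24% were higher and 23.4% lower. Of the 20 with a promoter but neither element, 7 were higher, 2 lower and 11 not called (median 0.13).

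The remaining members of this role did not pass the threshold. Herpud1, an ER stress-induced component of the degradation complex, had 9182, 9717 and 5789 normalized counts in TNF-Tg lungs and 5420, 5495 and 6864 in WT lungs. TNF-Tg replicates 1 and 2 were above all WT lungs and replicate 3 was within the WT range (log2 fold change 0.47, SE 0.20, adjusted p = 0.0847). Without TNF-Tg replicate 3, Herpud1 passed (0.66, adjusted p = 0.0105), and it also passed in DESeq2 (0.44, adjusted p = 0.0412). Sel1l, the scaffold of the ubiquitin ligase HRD1, had 5435, 5433 and 4279 normalized counts against 6061, 4960 and 4742, and overlapped (log2 fold change -0.06, SE 0.14, adjusted p = 0.759). Syvn1, the ligase HRD1 itself, had 2187 to 2333 normalized counts in TNF-Tg lungs and 2080 to 2289 in WT lungs (0.06, adjusted p = 0.565). The channel components Derl1 and Derl2 had log2 fold changes of 0.19 and 0.32 (adjusted p = 0.137 and 0.0644). Derl2 passed without WT replicate 2 (0.44, adjusted p = 0.0264).

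The translocon is the channel through which secretory proteins enter the ER, and 3 of 4 of its members rose (75%, against 24% of all genes). With any of the lungs left out, 2 of the 4 were higher. Sec61b, a small subunit of the channel, had 1632, 1506 and 1538 normalized counts in TNF-Tg lungs and 715, 670 and 899 in WT lungs. The groups were far apart (log2 fold change 1.03, SE 0.13, adjusted p = 0.000354), with a fold of 2.05. Ssr4, a subunit of the translocon-associated complex, had 2936, 2934 and 2080 normalized counts against 1134, 1321 and 1488. TNF-Tg replicate 3 was nearest to the WT lungs, still above all of them (log2 fold change 1.01, SE 0.16, adjusted p = 0.00134). Sec61a1, the pore subunit, had 5297, 5222 and 5068 normalized counts against 4367, 4276 and 4455, a narrow spread without overlap (log2 fold change 0.25, SE 0.09, adjusted p = 0.0438). That call lay at the threshold and was lost in 13 of the 16 alternatives, among them every fit with a lung left out (0.20 to 0.26, adjusted p of at most 0.177). Ssr1, a further subunit of the complex, had 3311, 3164 and 3157 normalized counts against 4043, 3910 and 3363. All TNF-Tg lungs were below the WT lungs (log2 fold change -0.23, SE 0.10, adjusted p = 0.0909), and it passed as lower without WT replicate 3 (-0.31, adjusted p = 0.0232).

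Some members that work in the same complex changed unequally. The ratio of Sec61b to Sec61a1 normalized counts was 0.308, 0.288 and 0.303 in TNF-Tg lungs and 0.164, 0.157 and 0.202 in WT lungs. The ratio of Ssr4 to Ssr1 was 0.887, 0.927 and 0.659 against 0.281, 0.338 and 0.443, and that of Sdf2l1 to Dnajb11 was 0.274, 0.238 and 0.275 against 0.137, 0.114 and 0.166. None of these 3 ratios overlapped between the groups. The ratio of Sel1l to Syvn1 did, with 2.48, 2.33 and 1.87 against 2.83, 2.38 and 2.07. These 4 pairs were chosen after their values were seen and were not tested.

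**Figure D3:**
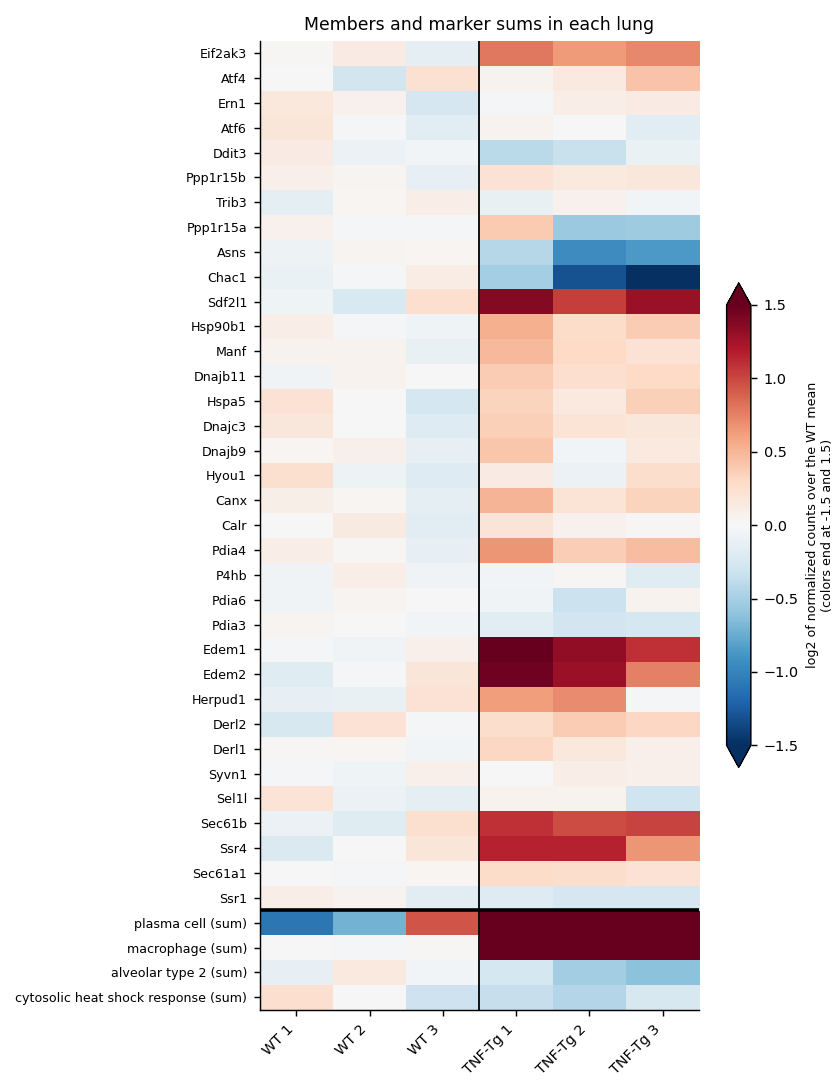
Log2 of normalized counts over the WT mean (color, from -1.5 in blue to 1.5 in red) for each member and, under the thick line, 4 summed gene lists, in 3 WT and 3 TNF-Tg lungs. Edem1, Edem2, Sdf2l1, Sec61b and Ssr4 are the strongest red rows among members, and Asns and Chac1 the blue ones.

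Levels were compared between genes only per length, as mean normalized counts per kb of exon. In WT lungs they ran from 6071 for P4hb, 5782 for Calr, 4085 for Pdia3, 2874 for Hsp90b1 and 2549 for Hspa5 down to 135 for Eif2ak3, 85.5 for Trib3 and 82.7 for Chac1. Of the 5 members with the largest rises, Sec61b (599) ranked 18 of the 35 in WT lungs, Edem2 (472) 20, Ssr4 (425) 22, Edem1 (288) 27 and Sdf2l1 (265) 28. In TNF-Tg lungs their levels were 1226, 1086, 856, 733 and 626 per kb, in the same order. Together the members took 0.451% to 0.478% of the counts of a WT lung and 0.501% to 0.552% of those of a TNF-Tg lung, without overlap.

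**Figure D4:**
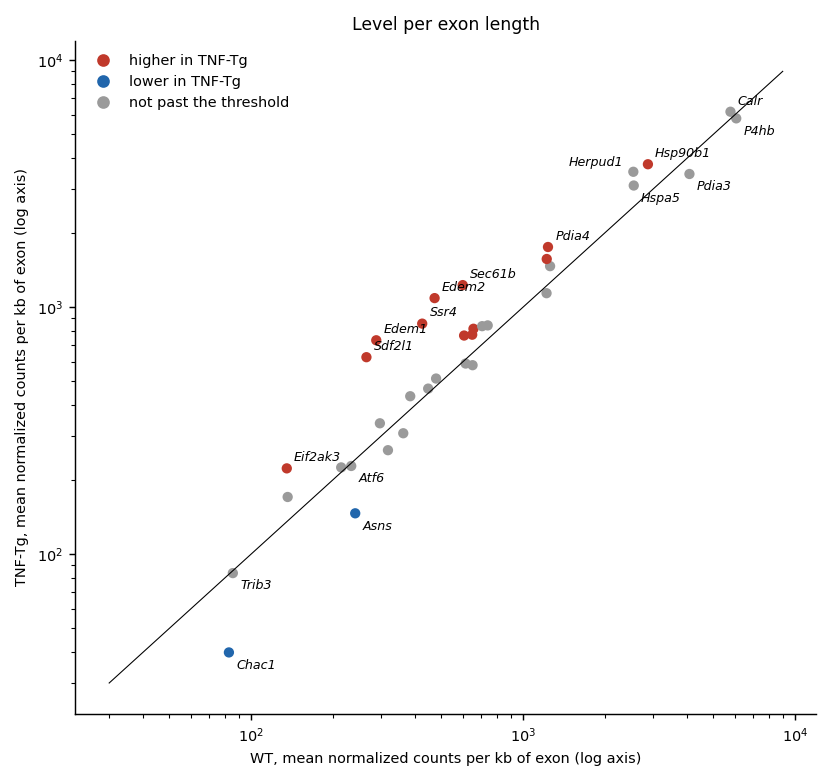
Mean normalized counts per kb of exon in WT (horizontal) and TNF-Tg lungs (vertical), both on log axes, each point 1 member, with the line of equal level. Edem1, Sdf2l1, Edem2, Sec61b and Ssr4 stand above the line at levels of 265 to 599 in WT lungs, and P4hb and Calr lie close to it at the top.

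Marker genes of secretory and other cell types were read in the same lungs. The 15 plasma cell genes had a summed 1350060, 1351868 and 568506 normalized counts in TNF-Tg lungs and 27832, 35886 and 112687 in WT lungs, and 13 of the 15 were higher. Without the 4 immunoglobulin genes the sums were 142313, 117490 and 70910 against 12597, 14030 and 18370, with 9 of 11 higher. Jchain, the immunoglobulin J chain, was kept in these sums and made up most of them in TNF-Tg lungs. It had 116172, 96163 and 54453 normalized counts against 783, 1263 and 5392. Plasma cell genes took 2.07% to 4.35% of the counts of a TNF-Tg lung and 0.0928% to 0.391% of those of a WT lung. Derl3 and Xbp1 stand both in this list and in the lists of the pathway. Of 9 macrophage genes, 8 were higher and 1, Siglecf, was lower, with sums of 345512 to 386124 in TNF-Tg and 89239 to 91180 in WT lungs. Of 8 B cell genes, 4 were higher and none lower (10103 to 10953 against 4635 to 8057), and 2 were higher without both lungs that stood apart.

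Genes of the resident tissue were lower or did not pass. Of 9 alveolar type 2 genes, 3 were lower and none higher, with sums of 501594 to 638044 in TNF-Tg lungs and 704402 to 848199 in WT lungs. All 6 alveolar type 1 genes (sums of 37546 to 45296 against 111362 to 121474), all 7 endothelial genes (47109 to 54227 against 93186 to 108336) and all 7 heart muscle genes (9673 to 11869 against 35642 to 46745) were lower. So were 4 of 5 club cell genes and 5 of 7 fibroblast genes, with 3 fibroblast genes lower when any TNF-Tg lung or WT replicate 1 was left out. The part of these shifts in the changes of the members was not tested. In replicate 3 the plasma cell sum was the lowest of the TNF-Tg lungs and the highest of the WT lungs, and 11 of the 15 plasma cell genes (73.3%) had this order. Among the members 6 had it (17.1%), namely Chac1, Herpud1, Edem1, Edem2, Sec61a1 and Ssr4, against 18.5% of all genes tested.

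The rest of the pathway was read from 158 further genes in 10 lists, of which 156 were tested. Of these, 44 were higher and 29 lower in TNF-Tg lungs (46.8%, against 47.4% of all genes tested, of which 24% were higher and 23.4% lower). Without both lungs that stood apart, 21 were higher and 16 lower. Xbp1, the transcription factor spliced by IRE1, had 11093, 8110 and 7468 normalized counts in TNF-Tg lungs and 5201, 6099 and 5797 in WT lungs. The groups did not overlap (log2 fold change 0.64, SE 0.16, adjusted p = 0.0121), and the call was lost without both lungs that stood apart (0.35, adjusted p = 0.131). Of the 16 other genes of the IRE1-XBP1 and ATF6 pathways, Xbp1 included, 6 were higher and 2 lower. Leaving out any lung gave between 2 (without TNF-Tg replicate 2) and 8 (without WT replicate 3) that were higher. Leaving out both lungs that stood apart gave 2 higher and 1 lower. Creld2, a target of ATF6, rose (log2 fold change 0.62, adjusted p = 0.00382), while Creb3l1, an ER-bound relative of ATF6 (-1.22, adjusted p = 0.00102), and Mbtps1, a protease that cuts ATF6 (-0.45, adjusted p = 0.011), fell. The call of Mbtps1 was lost without both lungs that stood apart (adjusted p = 0.0918).

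Of 23 other tested genes of the ATF4 and amino acid response, 10 were higher and 4 lower, and without both lungs that stood apart 5 were higher and 4 lower. The difference between this list and the members of the branch was not tested. Slc7a11, the cystine transporter, had 1758, 2423 and 1188 normalized counts in TNF-Tg lungs and 21.0, 9.58 and 32.9 in WT lungs, the largest change of any gene in these lists (log2 fold change 6.38, SE 0.42, adjusted p = 2e-05). Mthfd2, a mitochondrial folate enzyme, had 463, 419 and 443 against 152, 152 and 153 (1.53, SE 0.13, adjusted p = 4.83e-05). Gdf15, a stress-induced cytokine, had 409, 222 and 213 against 34.4, 24.9 and 40.9 (3.06, SE 0.33, adjusted p = 0.000186). No TNF-Tg lung came near the WT range for any of the 3 genes, while Trib3 and Atf4 overlapped in the same lungs. Atf5 (log2 fold change -0.83), Wars (-0.77), Vldlr (-0.77) and Sesn2 (-0.42) fell, as Chac1 and Asns did among the members, and these 4 are named after their values were seen. Of 9 eIF2alpha kinase and translation initiation genes, Eif2s1, eIF2alpha itself, rose (0.61, adjusted p = 0.0013).

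Of the 15 other tested ER oxidoreductases, 6 were higher and 3 lower. Ero1lb, an oxidase that recharges disulfide isomerases, rose (log2 fold change 0.94, adjusted p = 0.000591), and Pdia5 (-1.03, adjusted p = 0.000331) and Qsox1 (-1.23, adjusted p = 0.000347) fell. Of 19 other ER-associated degradation genes, 7 were higher and 1 lower, and 4 were higher without TNF-Tg replicate 1 and 2 without both lungs that stood apart. Derl3, the derlin found in secretory cells and one of the plasma cell markers, had 1429, 1194 and 624 normalized counts against 51.6, 97.8 and 216 (3.14, SE 0.51, adjusted p = 0.00151). Its lungs had the same order as the plasma cell sum in replicate 3. Sel1l3 (1.23, adjusted p = 0.000565) and Erlec1, an ER lectin (0.78, adjusted p = 0.00459), rose as well, the latter not without both lungs that stood apart (0.63, adjusted p = 0.0503).

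Further genes take part in the entry of proteins into the ER, in their glycosylation and in their exit. Of 20 other translocon, signal peptidase and signal recognition genes, 9 were higher and 2 lower, against 5 and 0 without both lungs that stood apart. The signal peptidase subunits Sec11c (log2 fold change 1.17, adjusted p = 0.0012) and Spcs3 (1.00, adjusted p = 0.0011) and the signal recognition particle subunit Srp9 (0.96, adjusted p = 0.000624) were among those that rose. Of 15 oligosaccharyltransferase and glucosidase genes none was higher and 2 were lower, Stt3b (-0.27, adjusted p = 0.0352) and Tusc3 (-0.32, adjusted p = 0.0437), of which at most 1 was left with any of the lungs left out, and 1 gene of the list was higher without WT replicate 2 or WT replicate 3. Of 13 genes of the COPII coat, which forms the vesicles that leave the ER, 2 were higher and 4 lower, with Sec24d at 0.57 (adjusted p = 0.00283) and Sec31a at -0.57 (adjusted p = 0.00269), and with a lung left out between 1 and 4 were lower. Without both lungs that stood apart 0 were higher and 1 was lower. The difference between these lists was not tested.

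Stress response genes of the cytosol and of mitochondria were read in the same lungs. Of 16 genes of the cytosolic heat shock response, 11 were lower (68.8%, against 23.4% of all genes) and none higher. The log2 fold change of all 16 was below 0 (median -0.50), as was that of 47.7% of all genes. Hspa1a, the inducible cytosolic Hsp70, had 373, 297 and 589 normalized counts in TNF-Tg lungs and 1711, 1039 and 1566 in WT lungs, without overlap (-1.77, SE 0.28, adjusted p = 0.00124). Hspa4l (-0.95, adjusted p = 0.000967) and Bag3 (-0.67, adjusted p = 0.00142) also fell. The groups did not overlap for 14 of the 16 (87.5%, against 58.7% of all genes). The summed list overlapped, with 104139, 97655 and 112388 normalized counts against 158733, 132935 and 106894, and WT replicate 1 was the highest lung. Hspa8, which was not called (-0.02), gave the most counts to this sum. It had 52631, 49843 and 57189 normalized counts against 64481, 57906 and 39718. Without WT replicate 1, 9 of the 16 were lower, and without both lungs that stood apart 8 were. Of 10 mitochondrial chaperones and proteases, 3 were higher, led by Htra2 (0.92, adjusted p = 0.000373), and 1 was still called when TNF-Tg replicate 1, WT replicate 1 or WT replicate 2 was left out.

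**Figure D5:**
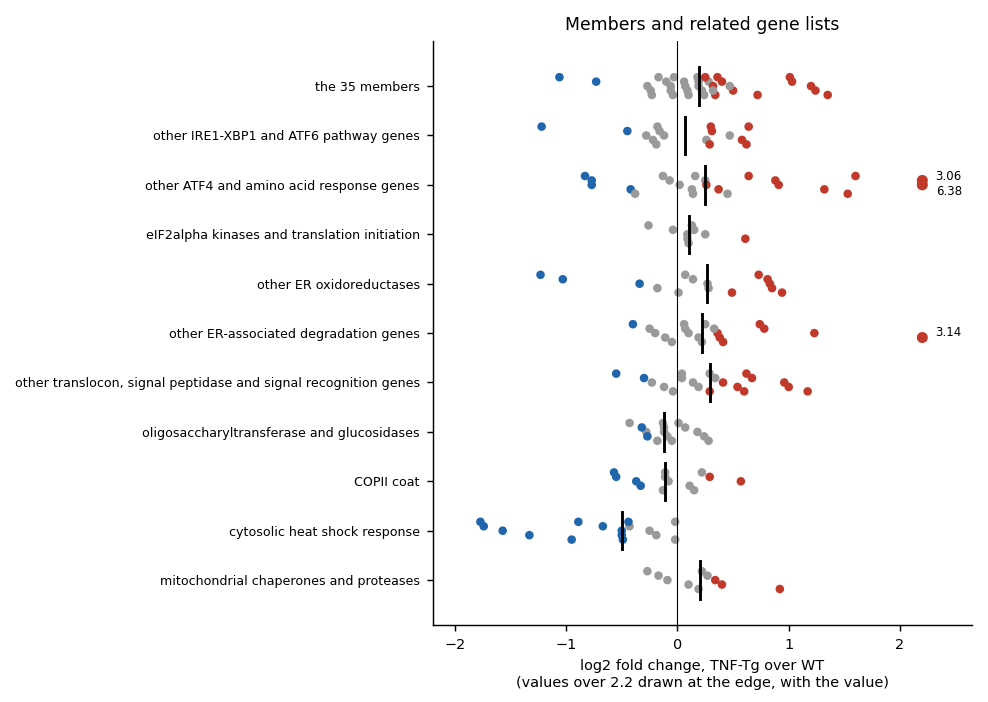
Log2 fold change in TNF-Tg over WT lungs (horizontal axis) of each member (top row) and of each tested gene of the 10 related lists, 1 point a gene, with black bars at the medians. Red points passed the threshold as higher, blue as lower. The heat shock row lies left of 0 with a median of -0.50, and the members spread around a median of 0.19.

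Opposite-strand transcripts cover a part of some members' exons in GENCODE M21, 11.4% for Ppp1r15b, 10.3% for Hsp90b1, 8.16% for Sec61a1 and 8.05% for Eif2ak3. The libraries mark strand, but the strand setting of the counting is not given in the sources used here, and without it reads of the partners could not be told apart. Overlaps on the same strand are not separated by any strand setting. A second gene with the symbol Ddit3 covers 6.13% of the Ddit3 exons, and Gm25745 covers 3.3% of those of Hsp90b1. Sequence shared with another locus was below 5% of the 100-base windows of every member, with Sec61b the highest at 4.33%.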

How the data were processed

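Whole-lung RNA of 3 TNF-Tg and 3 WT mice was sequenced from stranded poly(A) libraries. Per the labels, the submitters' processing notes name Trimmomatic 0.36, STAR 2.5.2b, featureCounts and GRCm38.p5. The strand setting and annotation release are not given in the sources used here. The authors deposited a table of counts, reads assigned to each gene symbol in each mouse, not normalized.

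Counts were tested with edgeR 4.0.16 (R 4.3.3, limma 3.58.1). The filterByExpr function removed low genes and TMM factors scaled the libraries. The quasi-likelihood test compared the genotypes, with no covariate, and p-values were adjusted over all genes tested by the Benjamini-Hochberg method. The study used DESeq2, which is an alternative here (version 1.42.0). The program was tested on simulated counts. A replicate is a mouse, and pairs of replicates differed beyond sampling noise (chi-square per degree of freedom 53.7 to 140). Total counts of 25396923 to 32529408 set a floor of 3 counts at 0.0922 to 0.118 CPM, for counting error only.

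The members and gene lists were chosen with earlier results of these data known. Values in all lungs are given for members past the threshold and for founders of each role. Of each related list at most the 3 genes with the smallest adjusted p are named, and Xbp1 always. The list of the ATF4 and amino acid response is an exception, where further genes were named after values were seen. Hspa8 is named as well, for its part in the heat shock sum. Partner pairs and the upstream stretches printed were chosen after values were seen. Exon lengths, positions and overlaps come from GENCODE M21 on GRCm38, which held 47240 of the 49568 symbols, and sequences from the RefSeq promoter table of GRCm38.p6. The promoter table gave no entry for Atf6, Hyou1, Ppp1r15b, Sec61a1, Manf and Derl1. Alternatives were DESeq2, limma-voom, DESeq2 size factors, scaling by total counts, removal of Gm42418, no filter, a minimum of 10 counts per lung, edgeR's robust dispersion, a block for the replicate number, leaving out each lung, an absolute log2 fold change of 1 or more and, chosen after seeing the data, TNF-Tg replicate 1 and WT replicate 1 left out together.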

Additional observations from a re-analysis of the deposited data

How the results depend on the processing

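Leaving out any lung gave 7 to 11 members that were higher in TNF-Tg lungs and 1 to 3 that were lower, against 12 and 2 with all lungs. Of all genes, the same fits gave 3392 to 4571 higher and 3734 to 4593 lower, against 4610 and 4486 with all lungs. At an absolute log2 fold change of at least 1, 5 members were higher and 1 lower, 8 related genes were higher and 7 lower, and 1980 of all genes were higher and 2340 lower. Without TNF-Tg replicate 1 and WT replicate 1 together, a setting chosen after seeing the data, 6 members, 21 related genes and 2689 of all genes were higher, and 3 members, 16 related genes and 3375 of all genes were lower. None of the 14 called members changed sign in the 16 alternative fits, and 7 kept their call in all of them. Of the members not called, 6 changed sign with a lung left out, with log2 fold changes of -0.12 to 0.04 for Atf6, -0.05 to 0.13 for Ern1, -0.12 to 0.02 for Trib3, -0.58 to 0.00 for Ppp1r15a, -0.20 to 0.00 for Pdia6 and -0.15 to 0.04 for Sel1l. The cause was not tested. With total counts only, 9 members and 3884 of all genes were higher.

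The replicate numbers name different animals, and same-numbered lungs did not deviate together (correlations of -0.15, 0.00 and -0.24 over genes). In the fit with the replicate block, 8 members were higher and 2 lower, 37 related genes were higher and 21 lower, and 3827 of all genes were higher and 3859 lower. Hsp90b1, Dnajb11, Canx and Sec61a1 were not called there. The spread of Hspa5 between lungs (SE 0.15) left an interval of its log2 fold change, -0.05 to 0.62, that held 0.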
